A study of Homo sapiens with 12 samples.

Results

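The mucin-type O-glycosylation enzymes were examined in 2 human hepatocellular carcinoma (HCC) cell lines, HA22T and PLC5, after knockdown of 1 of them, GALNT1. The set comprises 35 genes chosen by name and function, of 20503 genes named on the arrays: 20 GALNT family members, 7 genes of core synthesis and branching, and 8 sialyltransferases. Cells were transfected with 10 nM of a non-targeting siRNA (siControl) or of a pool of siRNAs against GALNT1 (siGALNT1), and total RNA was taken after 48 hours. The 4 groups, HA22T siControl, HA22T siGALNT1, PLC5 siControl and PLC5 siGALNT1, held 3 single-colour Agilent arrays each, so that each line stands for itself only and the knockdown was transient. Nothing in the labels says whether replicates were separate cultures, so the p-values measure the spread between these arrays, which may be technical. In bulk RNA, fewer cells with a transcript and less transcript per cell cannot be told apart.

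Mucin-type O-glycosylation takes place in the Golgi apparatus, where a GalNAc-transferase (GALNT) attaches N-acetylgalactosamine to serine or threonine and so starts the chain. C1GALT1, which needs the chaperone C1GALT1C1 (Cosmc) to fold, adds galactose to give core 1, and GCNT or B3GNT enzymes branch or extend it, or form other cores. ST3GAL and ST6GALNAC enzymes end the chain with sialic acid, and the balance of these steps sets which O-glycans, such as the truncated Tn and sialyl-Tn antigens, a tumor cell displays.

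Values are log2 signals scaled to the 75th percentile of their array, so 0 is the level of a bright probe, and values of different probes cannot be ranked against each other. Of the 35 genes, 34 had a probe and 33 had a probe with a value in every group. GCNT4, a core 2 enzyme, had no probe here. The probe of GALNT5, a GALNT family member, was flagged as non-uniform on all HA22T siGALNT1 arrays, and it read -1.13, 0.32 and 0.05 on the PLC5 siControl arrays against -2.12 on the only HA22T array that kept a value. Of the 33, 16 were well above background on all 12 arrays, and GALNT14 on none. Per array, 36679 to 48873 of 58717 spots were well above background, with group medians of 44641 for HA22T siControl, 38756 for HA22T siGALNT1, 43902 for PLC5 siControl and 45619 for PLC5 siGALNT1. Slides were inferred from scan times. By these, all HA22T arrays and replicate 1 of both PLC5 groups shared a slide, and replicates 2 and 3 of PLC5 were on another.

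The 9 hepatocyte markers differed widely between the lines. Their summed level on a linear scale, in units of the 75th percentile, was 2.33 to 2.87 on HA22T siControl arrays and 99.0 to 164 on PLC5 siControl arrays. All 9 were well above background on every PLC5 siControl array, but only 4 on every HA22T siControl array. Of the 9, 8 were higher in PLC5, among them the apolipoprotein APOB and the regulator HNF4A, and AFP did not pass the test. Of 6 mesenchymal markers read, 3 were tested with siControl and 2 called, both higher in HA22T: VIM, by 5.54 on the log2 scale, and LUM, which was well above background on 1 of 3 PLC5 siControl arrays. DCN (-0.36) was not called, and COL1A2, COL3A1 and PDGFRB were too dim to test. All 5 leukocyte marker probes, that of PTPRC included, were well above background on every array, so that a bright probe alone does not establish that these cells express its gene. Endothelial markers showed 1 call, PECAM1, higher in PLC5. These markers move with every line difference given for the enzymes, and their part in it was not tested.

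To examine the knockdown itself, GALNT1 was read first. GALNT1, a broadly expressed initiating transferase, stood at 1.32, 0.75 and 0.85 on the HA22T siControl arrays and at -3.15, -3.68 and -5.55 on the HA22T siGALNT1 arrays. In PLC5 it stood at 0.87, 0.37 and 0.61 with siControl and at -1.93, -3.47 and -3.92 with siGALNT1. Control and knockdown arrays did not overlap in either line, and the siGALNT1 arrays were the more spread. The log2 change was -5.10 ± 0.59 (SE, n = 3 against 3 arrays) in HA22T, a 34.3-fold drop, with limma's adjusted p = 0.0303. In PLC5 it was -3.72 ± 0.59, a 13.2-fold drop, with limma's unadjusted p = 3.9e-05 and adjusted p = 0.743, which did not pass the threshold of 0.05. By this probe GALNT1 signal remained well above background on 2 of 3 HA22T and 3 of 3 PLC5 siGALNT1 arrays. The HA22T fold was therefore taken in part against signal near background. Under other ways of processing, the HA22T change ran from -5.16 to -4.26.

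A pair of probes on the array target GALNT1. The other probe read 1.09, 0.63 and 0.39 on HA22T siControl arrays and -2.84, -4.29 and -5.02 on HA22T siGALNT1 arrays. In PLC5 it read -0.02, -0.41 and -0.10 with siControl and -2.69, -3.18 and -3.76 with siGALNT1. It was well above background on 1 of 3 HA22T and 3 of 3 PLC5 siGALNT1 arrays. Its log2 change was -4.75 ± 0.47 in HA22T (limma, adjusted p = 0.0117) and -3.03 ± 0.47 in PLC5 (adjusted p = 0.743), so the probes ran the same way in both lines. The difference in depth of knockdown between the lines was -1.38 ± 0.83 by the first probe (limma, unadjusted p = 0.124) and -1.72 ± 0.67 by the other (unadjusted p = 0.0241, adjusted p = 0.977). It too rests on HA22T signal near background. Under other ways of processing it ran from -1.55 to -0.88 by the first probe and from -1.79 to -1.23 by the other.

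**Figure D1:**
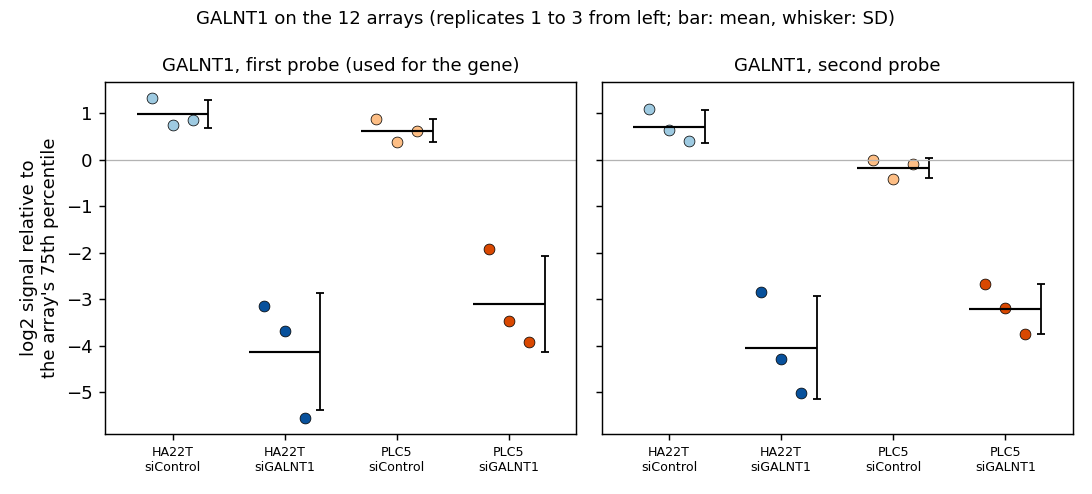
GALNT1 on each of the 12 arrays, as log2 signal relative to the array's 75th percentile, by group and for both probes; points are arrays, bars are means and whiskers are SDs. In each line the 3 siGALNT1 arrays lie well below the 3 siControl arrays, from -1.93 down to -5.55 by the first probe.

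The HA22T call of the first GALNT1 probe was near the threshold. Replicate numbers paired the HA22T arrays, and with the replicate as a block the adjusted p of the first probe was 0.0696 and that of the other 0.0302. It was 0.0708 with the prior for the spread taken from all probes, and it ran from 0.00998 to 0.202 as each of the 12 arrays was left out, with 7 of the 12 ending the call: each of the 3 HA22T siControl arrays (0.160 to 0.202), HA22T siGALNT1 replicate 2 (0.107), PLC5 siControl replicates 2 (0.0704) and 3 (0.0753) and PLC5 siGALNT1 replicate 2 (0.0830). Over the arrays left out, the change lay between -5.59 and -4.39. The other probe lost the call on leaving out 4 of the 12 arrays, the HA22T siControl arrays and HA22T siGALNT1 replicate 2 (adjusted p up to 0.107), and passed under 11 of 14 other settings. In PLC5, normexp background correction gave -3.38 with an adjusted p of 0.0160, which passed.

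Apart from GALNT1, no O-glycosylation enzyme passed the test after knockdown in either line. In HA22T, 1 of 27 enzymes tested passed (GALNT1), where 0.00826% of all probes did, and in PLC5 0 of 29 passed, where 0% of all probes did. At an unadjusted p below 0.05 there were 2 of 27 enzymes in HA22T and 1 of 29 in PLC5, GALNT1 included. Of all probes tested, 1313 of 36327 in HA22T and 644 of 38070 in PLC5 did so. By a fold of at least 1.5 with that p, the counts were 2 of 27 and 1 of 29, where 3.41% and 1.62% of all probes passed (1237 and 616 probes, or 647 to 1856 and 379 to 1611 as each array was left out). Leaving GALNT1 out, the median log2 change of the enzymes was -0.04 in HA22T and 0.01 in PLC5, beside -0.06 and 0.01 for all probes. The 95% confidence interval lay within 1 log2 unit of no change for 13 of 27 enzymes in HA22T and 18 of 29 in PLC5, so larger changes could not be bounded for the others.

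Among the other initiating transferases, GALNT2, the other main GalNAc-transferase of liver cells, read 0.04, 0.13 and 0.28 with siControl and -0.10, 0.41 and -0.08 with siGALNT1 in HA22T. In PLC5 it read 0.06, 0.30 and 0.05 with siControl and 0.38, 0.55 and -0.03 with siGALNT1. The groups overlapped, and the log2 changes were -0.07 (95% confidence interval -0.60 to 0.45) in HA22T and 0.17 (-0.36 to 0.69) in PLC5. GALNT13, the closest relative of GALNT1, was too dim to be tested: it was well above background on 1 HA22T siControl array, no HA22T siGALNT1 array and replicate 1 of each PLC5 group. Its values were -4.16, -5.95 and -6.67, then -8.44, -6.45 and -6.43, in HA22T with siControl and with siGALNT1. In PLC5 they were -2.61, -7.43 and -8.87 with siControl and -2.14, -8.15 and -8.54 with siGALNT1, so that replicate 1 stood apart from the other PLC5 arrays in both groups.

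GALNT8, a family member whose acceptors are little known, was the only other enzyme past the fold and unadjusted p in HA22T. It read -6.12, -5.46 and -6.74 with siControl and -4.36, -5.06 and -3.99 with siGALNT1, and these arrays did not overlap. In PLC5 it read -4.87, -4.76 and -4.30 with siControl and -6.70, -5.42 and -3.97 with siGALNT1, which overlapped. The log2 change was 1.63 ± 0.57 in HA22T (limma, unadjusted p = 0.0148, adjusted p = 0.997) and -0.72 ± 0.57 in PLC5, and the difference between the lines was 2.36 ± 0.81 (unadjusted p = 0.0134, adjusted p = 0.977). Neither passed the correction, and the probe was well above background on only 1, 2, 2 and 2 of 3 arrays in the 4 groups. With normexp background correction the HA22T change was 0.57.

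GALNT9 had 4 probes, which differed in direction. In HA22T their log2 changes were -0.05, -0.24, 0.41 and 0.98 and in PLC5 -0.18, 0.23, -0.10 and -0.27, and none passed the test.

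Core 1 synthesis was read from the transferase and its chaperone. C1GALT1 stood at -1.29, -1.35 and -0.36 with siControl and -1.68, -1.51 and -1.22 with siGALNT1 in HA22T, a log2 change of -0.47 (95% confidence interval -1.07 to 0.13), or -0.15 without HA22T siControl replicate 3. In PLC5 it stood at -1.19, -1.25 and -1.25 with siControl and -1.12, -1.31 and -1.22 with siGALNT1, a change of 0.01 (-0.59 to 0.62). By this probe the PLC5 arrays lay close together, whereas replicate 3 of HA22T siControl was high. Another, dimmer C1GALT1 probe changed by -0.20 in HA22T and -0.07 in PLC5, and neither change passed the test. C1GALT1C1 stood at 1.54, 1.54 and 1.64 with siControl and 0.87, 1.45 and 1.39 with siGALNT1 in HA22T, all siGALNT1 arrays below all siControl arrays, yet the change of -0.34 (-1.01 to 0.34) did not pass the test. It was -0.15 without HA22T siGALNT1 replicate 1 and -0.064 with normexp background correction. In PLC5 it stood at 1.73, 1.05 and 1.05 with siControl and 1.75, 1.41 and 0.72 with siGALNT1, a change of 0.01 (-0.66 to 0.69). None of the 6 core and branching enzymes tested, and none of the 8 sialyltransferases, passed even the unadjusted p in either line. Their log2 changes ran from -0.80 for GCNT1 in HA22T to 0.29 for ST6GALNAC3 in HA22T.

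**Figure D2:**
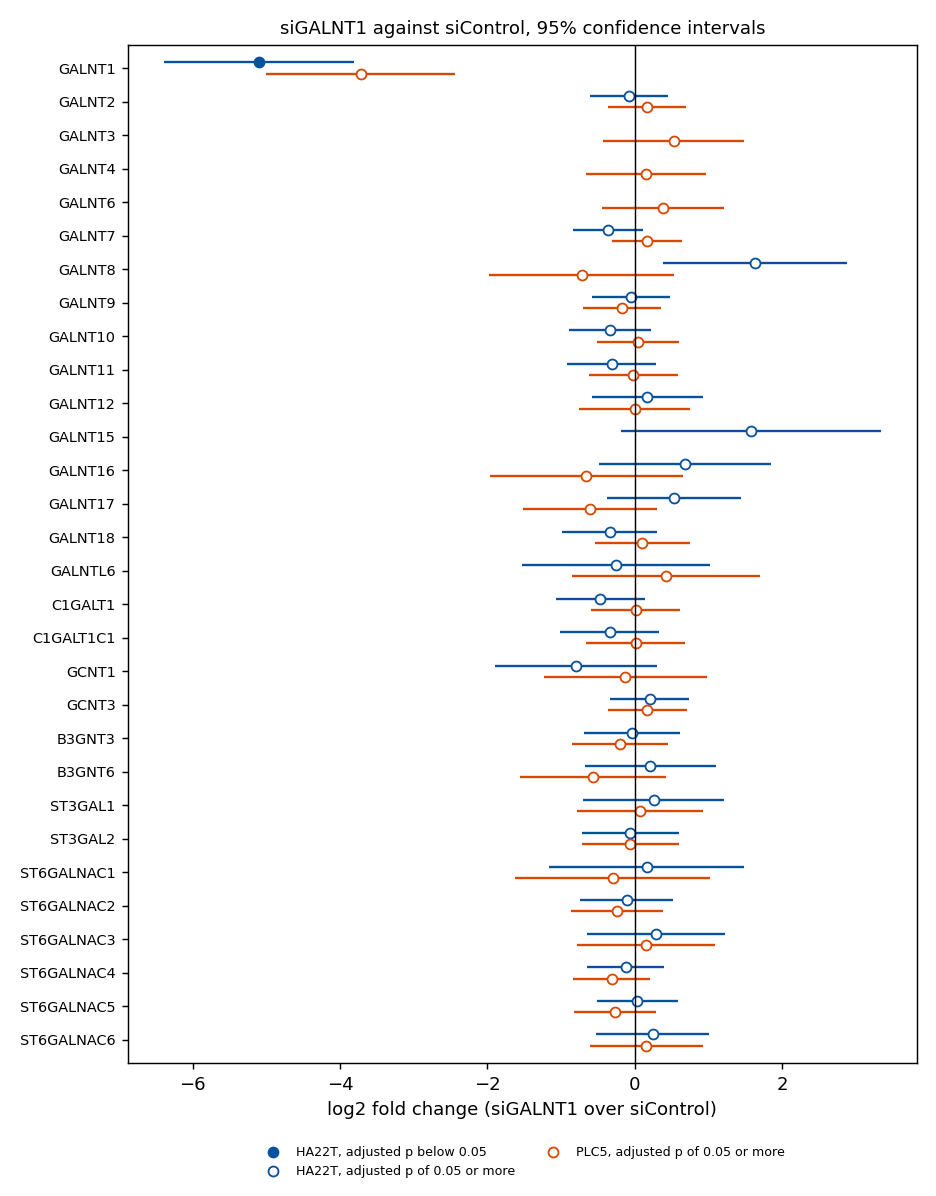
Log2 change of each tested enzyme with siGALNT1 against siControl in HA22T (blue) and PLC5 (orange), with 95% confidence intervals from the limma fit; filled points have an adjusted p below 0.05. GALNT1 lies at -5.10 and -3.72, and the interval of nearly every other enzyme crosses 0, GALNT8 in HA22T being the exception.

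No gene of the lists that supply or neighbour this pathway passed the test after knockdown. Of 12 genes of UDP-sugar supply, 4 tested of CMP-sialic acid supply, 24 of chain elongation and capping, 9 of other O-glycan initiation and 8 of the COG complex, which holds Golgi enzymes in place, 0 passed in HA22T and 0 in PLC5 by limma. At an unadjusted p below 0.05 there was 1 gene of chain elongation and capping in each line and none of the other lists, beside 1313 of 36327 probes in HA22T and 644 of 38070 in PLC5. The medians in HA22T were -0.25, -0.35, -0.03, -0.10 and -0.03 in that order, beside -0.06 for all probes.

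To determine which O-glycosylation enzymes set the lines apart, HA22T was compared with PLC5 on the siControl arrays and on the siGALNT1 arrays. The comparisons share no array. They do share the lines, the slides and the fit's estimate of the spread, so the second is no independent repeat. With siControl, 10 of 28 enzymes tested differed, 4 higher in HA22T and 6 higher in PLC5, where 23.9% of all probes did (12.0% higher in HA22T and 11.8% higher in PLC5). With siGALNT1, 11 of 29 differed, 5 higher in HA22T and 6 higher in PLC5, where 25.3% of all probes did (11.2% and 14.1%). The enzymes called in both were 9, all in the same direction, GALNT4 and GALNT6 among them. Of the 27 tested in both, 19 had the same sign. These agreements were not counted over all probes, so they do not set the enzymes apart. Among all probes called with siGALNT1, 44.2% were higher in HA22T, and quantile normalization put that share at 55.1%.

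Starting with the initiating transferases, GALNT4, which prefers substrates that already carry GalNAc, was higher in PLC5. It read -3.23, -3.02 and -2.83 on PLC5 siControl arrays and -2.24, -2.94 and -3.44 on PLC5 siGALNT1 arrays. In HA22T it read -6.16, -7.22 and -6.27 with siControl and -7.24, -6.32 and -6.61 with siGALNT1, and it was not well above background on any HA22T array. Set against the lowest signal that counted as above background, GALNT4 was 5.75-fold higher in PLC5 with siControl and 4.29-fold higher with siGALNT1. Limma on the measured values gave adjusted p = 2.38e-05 and 1.21e-05. GALNT4 was tested through its PLC5 arrays only, so these p-values are set against HA22T signals near background. The folds take, for each dim array, the lowest signal among probes well above background or the probe's own, whichever is higher. They are not strict lower limits, and normexp background correction gave a smaller difference.

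GALNT6, a transferase often raised in carcinomas, showed the same pattern. It read -3.40, -3.45 and -3.56 in PLC5 with siControl and -2.87, -2.67 and -3.69 with siGALNT1. In HA22T, where no array was well above background, it read -6.84, -7.76 and -6.74 with siControl and -7.47, -6.32 and -6.55 with siGALNT1. Set against the same lowest signal, GALNT6 was 4.24-fold higher in PLC5 with siControl and 3.72-fold higher with siGALNT1. Limma on the measured values gave adjusted p = 1.98e-05 and 1.87e-05, and GALNT6 too was tested through its PLC5 arrays only. GALNT3, its closest relative, was dim in both lines, was tested in the siGALNT1 comparison only, and differed there by -0.15 (HA22T against PLC5; 95% confidence interval -1.11 to 0.80).

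GALNT12, highly expressed in normal colon and related to GALNT4, was measured well above background on all 12 arrays. It read -4.27, -3.64 and -3.95 in HA22T and -2.10, -1.61 and -1.64 in PLC5 with siControl. With siGALNT1 it read -3.94, -3.31 and -4.10 in HA22T and -2.49, -1.25 and -1.61 in PLC5. The lines did not overlap, and the log2 difference was -2.17 ± 0.35 with siControl (4.49-fold, adjusted p = 0.00057) and a 3.99-fold difference in the same direction with siGALNT1 (adjusted p = 0.00109).

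GALNT18 was the transferase that ran the other way. It read -1.20, -2.04 and -2.04 in HA22T with siControl and -1.98, -2.19 and -2.13 with siGALNT1. In PLC5 it read -5.86, -5.48 and -6.16 with siControl and -5.85, -5.36 and -5.97 with siGALNT1, where it was well above background on 1 and 2 of 3 arrays. The difference of 4.07 ± 0.30 with siControl (16.8-fold, adjusted p = 1.04e-06) was taken against PLC5 arrays near background, and it was 3.63 ± 0.30 with siGALNT1 (adjusted p = 2.95e-06).

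GALNT7, which also acts on substrates with GalNAc in place, was called with siGALNT1 only. It read -1.20, -1.59 and -1.26 in HA22T and -0.82, -1.07 and -0.73 in PLC5 with siControl, a difference of -0.48 ± 0.22 (adjusted p = 0.145). On the siGALNT1 arrays it read -1.56, -1.87 and -1.71 in HA22T and -0.75, -0.58 and -0.78 in PLC5, a difference of -1.01 ± 0.22 (adjusted p = 0.00499). The lines did not overlap in either comparison, and the change in the difference was -0.53 ± 0.31 (unadjusted p = 0.112), which did not pass a test.

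GALNT1 and GALNT2 were not called between the lines. With siControl, GALNT1 differed by 0.36 (95% confidence interval -0.93 to 1.64) by the first probe and by 0.88 (-0.15 to 1.91) by the other, whose HA22T arrays all lay above its PLC5 arrays, GALNT2 differed by 0.01 (-0.51 to 0.54) and GALNT10, a further glycopeptide transferase, by 0.05 (-0.50 to 0.60). Of the 14 GALNT family members tested with siControl, 4 were called, and of 15 tested with siGALNT1, 5 were called, where 23.9% and 25.3% of all probes were.

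A pair of core 2 enzymes differed between the lines, in opposite directions. GCNT3, the mucin-type branching enzyme that makes cores 2 and 4, read -3.57, -3.71 and -3.60 in HA22T and -0.30, -0.27 and 0.08 in PLC5 with siControl. The siGALNT1 readings were -3.67, -3.19 and -3.41 in HA22T and -0.39, 0.17 and 0.24 in PLC5. Replicates lay within 1 log2 unit of each other in every group, and the difference was -3.46 ± 0.25 (11.0-fold, adjusted p = 8.6e-07) with siControl and -3.43 ± 0.25 (adjusted p = 1.07e-06) with siGALNT1.

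GCNT1, the leukocyte-type core 2 enzyme, ran the opposite way. It read -1.62, -2.02 and -2.27 in HA22T and -5.29, -5.06 and -5.66 in PLC5 with siControl. With siGALNT1 it read -2.24, -2.96 and -3.09 in HA22T and -6.79, -4.27 and -5.33 in PLC5. It was well above background on 2 of 3 arrays of each PLC5 group. The difference was 3.37 ± 0.51 (10.3-fold, adjusted p = 0.000372) with siControl and 2.70 ± 0.51 (adjusted p = 0.00195) with siGALNT1.

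The stretch of 250 bases before the RefSeq start of 4 enzymes is shown, because GCNT3 and GCNT1 make the same linkage and lay on opposite sides, GALNT12 was a transferase higher in PLC5, and C1GALT1 did not pass the test between the lines. Sequences are from RefSeq on GRCh38.p14, 5′ to 3′ on the strand of the gene, and capitals mark matches on either strand to the TATA box TATAAA, the GC box GGGCGG, the CCAAT box, and the core letters GTTAAT of HNF1 and CAAAGT of HNF4 motifs.
GCNT3, chr15:59611533-59611782, plus strand: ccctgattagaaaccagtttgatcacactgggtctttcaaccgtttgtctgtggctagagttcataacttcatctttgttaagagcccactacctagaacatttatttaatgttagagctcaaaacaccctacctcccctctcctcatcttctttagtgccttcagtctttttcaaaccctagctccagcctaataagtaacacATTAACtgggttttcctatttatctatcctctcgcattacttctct
GCNT1, chr9:76393619-76393868, plus strand: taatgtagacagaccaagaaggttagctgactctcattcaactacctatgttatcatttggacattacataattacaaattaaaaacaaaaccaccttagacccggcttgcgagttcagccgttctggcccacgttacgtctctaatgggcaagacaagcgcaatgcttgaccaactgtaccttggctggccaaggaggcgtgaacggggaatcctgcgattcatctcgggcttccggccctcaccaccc
GALNT12, chr9:98807420-98807669, plus strand: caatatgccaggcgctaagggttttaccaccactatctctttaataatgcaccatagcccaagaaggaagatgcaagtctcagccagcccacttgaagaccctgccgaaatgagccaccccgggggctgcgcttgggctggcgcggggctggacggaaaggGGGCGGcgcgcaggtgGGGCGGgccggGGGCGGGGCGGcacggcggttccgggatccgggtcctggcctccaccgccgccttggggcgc
C1GALT1, chr7:7182294-7182543, plus strand: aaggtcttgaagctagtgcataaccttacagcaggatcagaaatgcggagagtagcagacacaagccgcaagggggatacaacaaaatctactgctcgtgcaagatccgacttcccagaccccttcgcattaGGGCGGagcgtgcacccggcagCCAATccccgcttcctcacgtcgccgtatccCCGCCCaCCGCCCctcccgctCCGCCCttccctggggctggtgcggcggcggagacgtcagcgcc
GCNT3 held 1 match, to the HNF1 letters, and GCNT1 none, whereas GALNT12 held 4 GC boxes, and C1GALT1 held 4 GC boxes and 1 CCAAT box. These stretches were 40.4%, 48.8%, 67.2% and 62.4% G and C, against a median of 58.0% over all promoters. Over 35114 RefSeq promoters, the same window held the TATA box in 10.7%, the GC box in 42.6%, the CCAAT box in 32%, the HNF1 letters in 6.23% and the HNF4 letters in 10.3%. Of the 35 enzymes, 25 had an entry, and of these 17 held a GC box, 5 a CCAAT box, 1 a TATA box, 1 the HNF1 letters and 2 the HNF4 letters. The first entry listed for an enzyme was used, whereas the percentages are over all entries. Whether that start belongs to the transcript a probe reads was not checked. A match is a description of letters and not a site of binding.

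B3GNT6, the core 3 synthase, was higher in PLC5. It read -4.82, -3.08 and -3.55 in HA22T with siControl and -1.42 and -0.92 on the PLC5 siControl arrays that kept a value, replicate 2 having been flagged and dropped from the fit. On the siGALNT1 arrays it read -3.95, -3.49 and -3.38 in HA22T and -1.77, -1.98 and -1.44 in PLC5. The difference was -2.65 ± 0.45 (6.27-fold, adjusted p = 0.00125) with siControl and -1.87 ± 0.40 (adjusted p = 0.00576) with siGALNT1. B3GNT3, which extends core 1, was higher in HA22T. It read 1.40, 1.09 and 1.37 in HA22T and 0.01, 0.26 and -0.22 in PLC5 with siControl. The siGALNT1 readings were 1.39, 1.27 and 1.09 in HA22T and -0.20, -0.80 and 0.44 in PLC5. The lines did not overlap, and the difference was 1.27 ± 0.30 (2.41-fold, adjusted p = 0.00821) with siControl and 1.43 ± 0.30 (adjusted p = 0.00392) with siGALNT1.

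The core 1 genes were not called between the lines. C1GALT1 differed by 0.23 (95% confidence interval -0.38 to 0.83) and C1GALT1C1 by 0.30 (-0.38 to 0.97) with siControl, and by -0.25 and -0.05 with siGALNT1. The other C1GALT1 probe, dimmer but well above background on every array, differed by 0.43 with siControl and 0.30 with siGALNT1. Neither was called, and with siGALNT1 the probes of C1GALT1 ran in opposite directions.

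**Figure D3:**
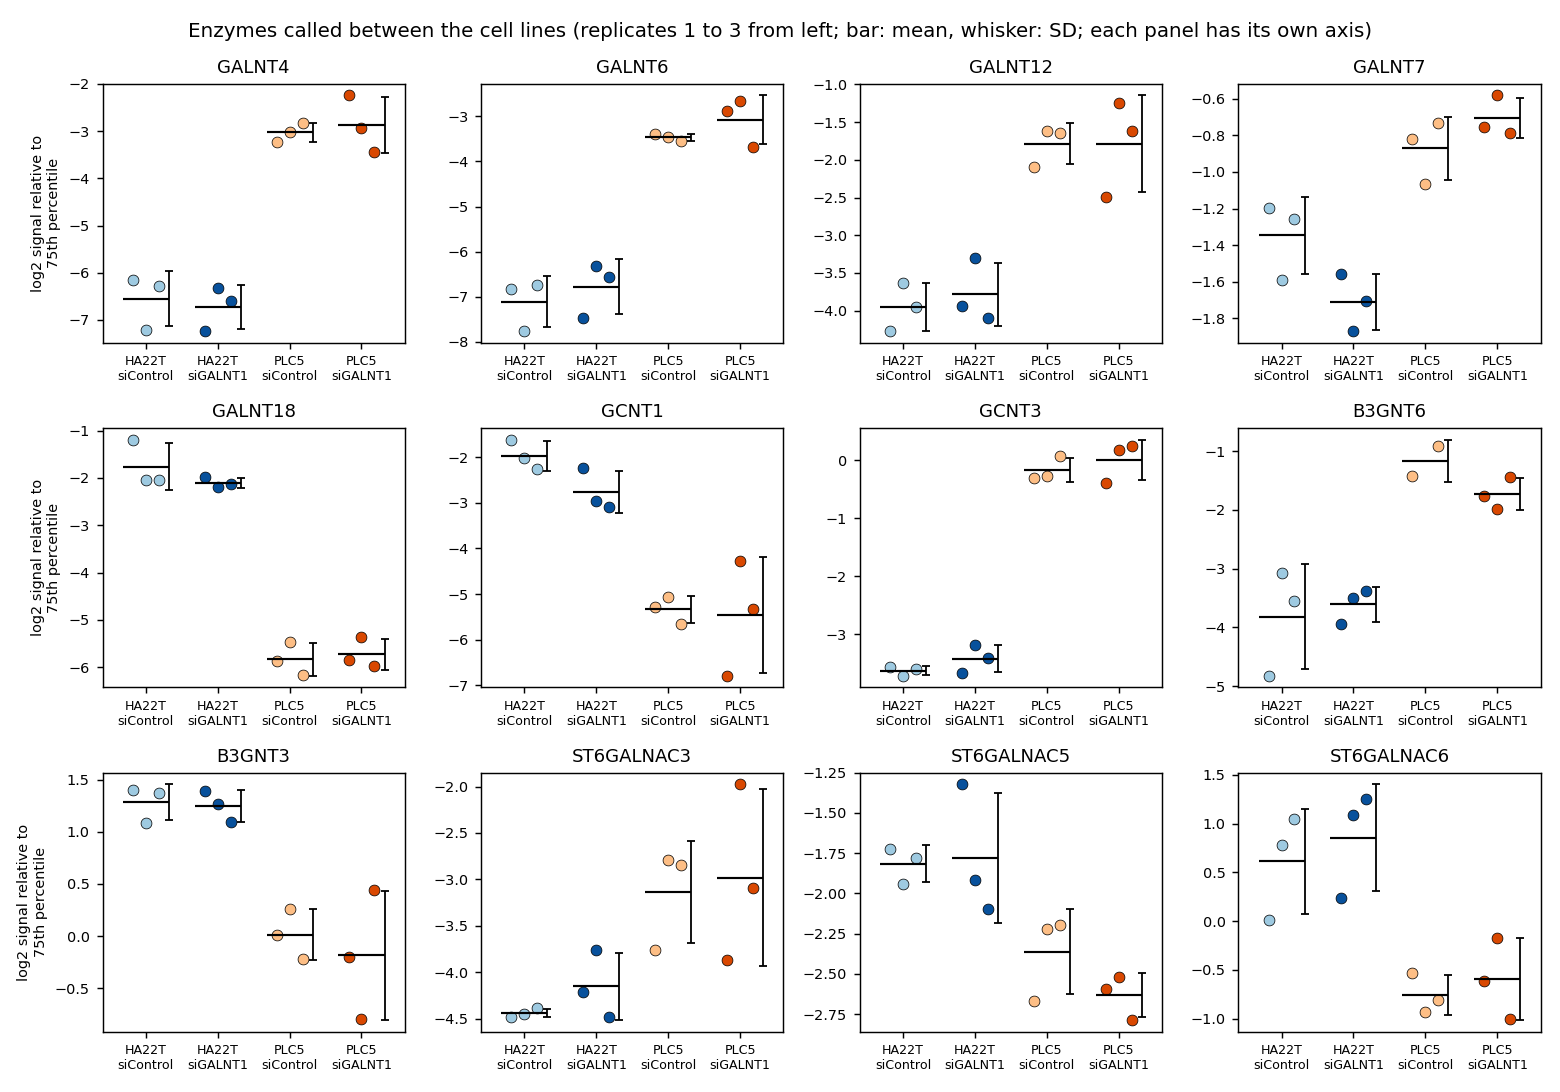
The 12 enzymes called between the cell lines, on each array, as log2 signal relative to the array's 75th percentile; points are arrays, bars are means, whiskers are SDs, and each panel has its own axis. GALNT4, GALNT6, GALNT12, GCNT3 and B3GNT6 are higher in PLC5, and GALNT18, GCNT1, B3GNT3 and ST6GALNAC6 are higher in HA22T, with siControl as with siGALNT1.

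Among the sialyltransferases, ST6GALNAC6, which acts mainly on glycolipids, was higher in HA22T. It read 0.01, 0.78 and 1.04 in HA22T and -0.53, -0.93 and -0.81 in PLC5 with siControl. With siGALNT1 it read 0.23, 1.08 and 1.25 in HA22T and -0.61, -0.17 and -1.01 in PLC5. The difference was 1.37 ± 0.35 (2.58-fold, adjusted p = 0.0133) with siControl and 1.45 ± 0.35 (adjusted p = 0.00967) with siGALNT1. With siControl, the adjusted p was 0.0602 without HA22T replicate 3 and 0.0529 without PLC5 replicate 2, 0.0694 with the slide as a block and 0.0709 by the methods' t-test, and with siGALNT1 it was 0.105 by that test.

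ST6GALNAC5, a related ganglioside enzyme, was called with siGALNT1 only. It read -1.72, -1.94 and -1.78 in HA22T and -2.67, -2.22 and -2.20 in PLC5 with siControl, a difference of 0.55 ± 0.25 (adjusted p = 0.152), which quantile normalization put at 0.71 (adjusted p = 0.0469). On the siGALNT1 arrays it read -1.32, -1.91 and -2.10 in HA22T and -2.59, -2.52 and -2.79 in PLC5, a difference of 0.85 ± 0.25 (adjusted p = 0.0279). The call was lost without HA22T replicate 1 (0.0924), or PLC5 replicate 1 (0.0618), 2 (0.0506) or 3 (0.0640), these being adjusted p-values.

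ST6GALNAC3, which adds sialic acid to sialylated core 1, was called with siControl only and near the threshold. It read -4.48, -4.44 and -4.39 in HA22T and -3.77, -2.79 and -2.84 in PLC5 with siControl, a difference of -1.31 ± 0.43 (adjusted p = 0.0443). The siGALNT1 readings were -4.21, -3.76 and -4.48 in HA22T and -3.87, -1.98 and -3.10 in PLC5, which overlapped, with a difference of -1.17 ± 0.43 (adjusted p = 0.0653). In PLC5, replicate 1 was the lowest in both groups. With siControl the difference was -0.67 on slide 1 alone, the adjusted p was 0.376 with the slide as a block, and the call was lost on leaving out 8 of the 12 arrays in turn (adjusted p up to 0.150). With siGALNT1 the difference was called when PLC5 siGALNT1 replicate 1 was left out (-1.62, adjusted p = 0.0156).

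ST3GAL1 and ST3GAL2, which sialylate the galactose of core 1, and ST6GALNAC1, the sialyl-Tn synthase, were not called. With siControl their differences between HA22T and PLC5 were -0.49 (95% confidence interval -1.35 to 0.37), -0.50 (-1.16 to 0.15) and -0.11 (-1.43 to 1.22). ST6GALNAC2 differed by 0.47 (-0.16 to 1.09) and ST6GALNAC4 by 0.12 (-0.40 to 0.65).

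**Figure D4:**
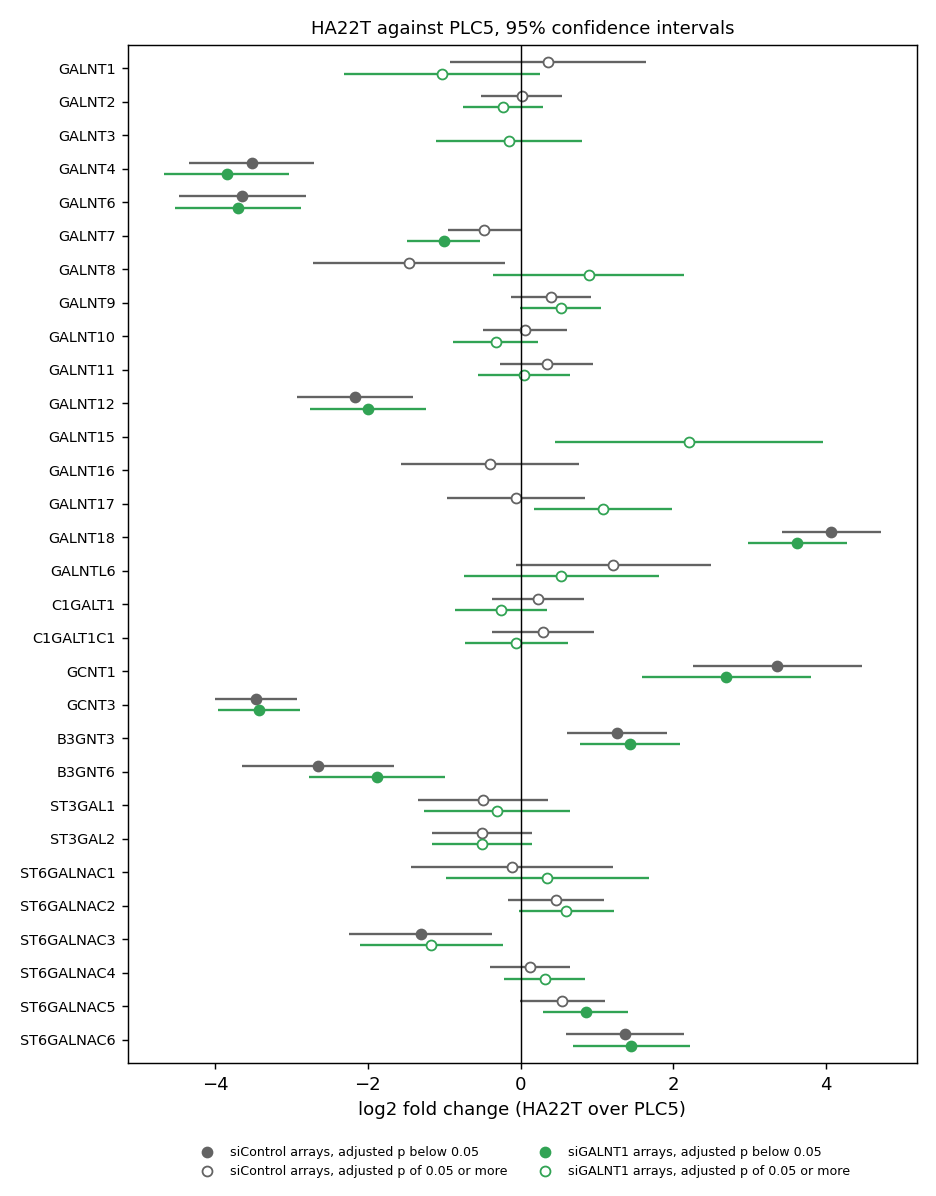
Log2 difference of each tested enzyme between HA22T and PLC5, above 0 where HA22T is higher, on the siControl arrays (grey) and the siGALNT1 arrays (green), with 95% confidence intervals from the limma fit; filled points have an adjusted p below 0.05. With siControl GALNT18 lies at 4.07 and GCNT3 at -3.46, and the points of GALNT4 and GALNT6 are set against HA22T arrays that were not well above background.

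Since the slides were uneven between the lines, the line differences were also taken on slide 1 alone, where PLC5 had 1 array per group, assumed to vary like the others. With siControl, the differences there were 4.10 for GALNT18, 3.32 for GCNT1, -3.33 for GCNT3 and -1.85 for GALNT12. B3GNT6 (-2.40), B3GNT3 (1.28) and ST6GALNAC6 (1.15) kept their direction. GALNT4 and GALNT6, not well above background in HA22T, were also higher in PLC5. With siGALNT1 on slide 1, GALNT18, GCNT1, GCNT3, GALNT4, GALNT6 and B3GNT3 ran in the same direction. So did GALNT12 (-1.29), B3GNT6 (-1.83), GALNT7 (-0.96), ST6GALNAC6 (1.47) and ST6GALNAC5 (0.81), while GALNT8 differed by 2.23. Only sizes are given for slide 1, since 1 PLC5 array per group has no spread of its own. Normexp background correction, which adds an offset to every signal, gave smaller siControl differences for the dimmer probes, all still called: 2.57 for GALNT18, 2.40 for GCNT1, -1.61 for GALNT4 and -1.43 for GALNT6. The last 2 were smaller in size than the folds given for them against the lowest signal above background. By the methods' t-test, adjusted p-values rose past the threshold for B3GNT6 (0.117) with siControl and for GALNT12 (0.0711), B3GNT3 (0.0931), GCNT1 (0.116) and ST6GALNAC5 (0.116) with siGALNT1.

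The supply genes around the enzymes were read in the same comparisons, in which 23.9% of all probes were called with siControl and 25.3% with siGALNT1. With siControl, 6 of 12 genes of UDP-sugar supply were called. GFPT2, an entry enzyme of the hexosamine pathway, was higher in HA22T by 3.11 ± 0.58 (adjusted p = 0.0017), and UAP1, which makes UDP-GlcNAc and UDP-GalNAc, by 2.07 ± 0.30 (adjusted p = 0.000255). The GFPT2 probe was well above background on only 2 of 3 arrays of each PLC5 group. GFPT1, the isoform that catalyses the same step as GFPT2, was higher in PLC5 (-1.40 ± 0.30, adjusted p = 0.00488), as were UGP2 (-0.81), GALT (-1.03) and the UDP-galactose transporter SLC35A2 (-0.97). These 6 genes were called in the same direction with siGALNT1, where GNPNAT1 was called besides, higher in PLC5. Of CMP-sialic acid supply, 2 of 4 were called with siControl, NANS (0.74) and CMAS (0.76), both higher in HA22T, and 0 with siGALNT1 by limma, none passing even the unadjusted p.

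In chain elongation and capping, 7 of 23 genes were called with siControl and 6 of 23 with siGALNT1, beside 23.9% and 25.3% of all probes. B3GNT9 (1.46), B4GALT3 (0.84), B4GALT6 (2.15), ST3GAL4 (1.23) and ST3GAL6 (1.90) were higher in HA22T, whereas ST6GAL1 (-3.37) and ST3GAL5 (-1.65) were higher in PLC5. The B4GALT6 probe was well above background on only 1 of 3 PLC5 siControl arrays. ST6GAL1, the enzyme that puts the terminal sialic acid on N-glycans and is abundant in hepatocytes, differed by -3.65 with siGALNT1 (adjusted p = 4.8e-05), and was well above background on 2 of 3 HA22T siControl and 1 of 3 HA22T siGALNT1 arrays. With siGALNT1, ST3GAL5 differed by -0.18 (adjusted p = 0.844) and B4GALT6 by 1.13 (adjusted p = 0.0651), neither called, while FUT8 was called besides (0.90, adjusted p = 0.0118). The COG subunits COG5 (-1.38) and COG7 (-0.86) were higher in PLC5, 2 of 8 with siControl as with siGALNT1, a share near that of all probes. Of 9 tested genes of other O-glycan initiation, 0 were called by limma. With siControl 2 of them had an unadjusted p below 0.05, as did 13122 of all 38011 probes tested.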

How the data were processed

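RNA of 4 groups of 3 samples was measured on 12 single-colour arrays. The authors labelled cDNA, scanned the arrays and read the images with Agilent Feature Extraction (version 10.5.1.1 per the submitters' processing notes). The intensity values they deposited are the processed signal, with background subtracted, and median spot and local background brightness, with quality flags. A log2 value table was deposited too, whose scaling is not given in the sources used here and which correlated with the values below at 0.99998 or more on each array.

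The log2 processed signal was set relative to the 75th percentile of all spots that are not controls on each array. Spots flagged as non-uniform (489 to 3633 per array) were dropped, and spots of a probe averaged. Of 50599 probes, 28174 were named through RefSeq transcript accessions. The 4 groups were fitted together in limma 3.58.1 (R 4.3.3), without covariates, the prior for the spread taken from the probes tested. A probe was tested if 3 or more of the 6 arrays compared were well above background, and called at a Benjamini-Hochberg adjusted p below 0.05 over all probes tested. Between the lines a probe can be tested through the line in which it is high, so counts of enzymes called there are descriptions only. Intervals are 95% confidence intervals from this fit. Each gene is given by its brightest probe having a value in every group. Values per array are given for GALNT1, GALNT2, GALNT13, C1GALT1, C1GALT1C1, enzymes called in any comparison, and enzymes past a 1.5-fold change with unadjusted p below 0.05 after knockdown. The enzymes, lists and rules were chosen with earlier results of these data known. The fit was tested on simulated data.

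The replicate numbers were checked for pairing over 22282 probes: deviations of same-numbered arrays from their group means correlated at 0.550, 0.403 and 0.430 in HA22T, which pairs them by a limit of 0.1, and at 0.706, -0.02 and 0.164 in PLC5, which does not. The pairing comes from the values only. The slide was taken from the scan time in the array files, on the assumption that each slide was scanned once, so it is strictly a group of arrays scanned together. The arrays' number limits the precision. The paper names Student's t-test among others without saying which test the arrays had. What is called the methods' t-test is that test with Benjamini-Hochberg adjustment, and not a stated analysis of the study. Alternatives were quantile and median scaling, normexp (offset 50, on the median spot brightness, the mean not being in the files), the deposited table, no filter on dim probes or all 6 arrays, non-uniform spots kept, another prior, a trend, slide or replicate as a block, only the compared groups, the methods' t-test, the mean over probes, each array left out and, added after seeing the data, the percentile over kept spots only.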

Additional observations from a re-analysis of the deposited data

How the results depend on the processing

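In HA22T after knockdown, the main 3 probes called and the 1 enzyme called (GALNT1) became 1 and 0 with quantile normalization, no filter on dim probes, the prior from all probes, the methods' t-test, the percentile over kept spots and the replicate block, and 0 and 0 with only the compared groups fitted or all 6 arrays well above background. GALNT1 then changed by -4.94 (adjusted p = 0.0512) with quantile normalization, -4.98 (0.0558) with the percentile over kept spots, and -5.10 with no filter (0.0967), the prior from all probes (0.0708), only the compared groups (0.315) and the methods' t-test (0.983), and was not tested with all 6 arrays required. These enzyme values are those of the brighter probe: the other GALNT1 probe passed with quantile normalization (0.0186), no filter (0.0416), the prior from all probes (0.0305), the percentile over kept spots (0.0206) and the replicate block (0.0302), and was the 1 probe left there. With the replicate block it changed by -5.10 (adjusted p = 0.0696), and the block changed no other call of an enzyme after knockdown. In PLC5, where the numbers do not pair the arrays, 0 probes were called with it. The counts past a fold of 1.5 and an unadjusted p, 1237 in HA22T and 616 in PLC5, were 2313 and 1110 with the replicate block, 753 and 325 by the methods' t-test, 686 and 189 with all 6 arrays required, and in HA22T 1959 with no filter, and ran from 647 to 1856 and from 379 to 1611 as each array was left out. Leaving out each array gave 0 to 4 probes called and 0 to 1 enzymes in HA22T, and -5.59 to -4.39 for GALNT1. In PLC5, normexp called 2 probes, both of GALNT1, which is 1 enzyme, at -3.38 (adjusted p = 0.0160). The small changes of GALNT2 in HA22T turned to 0.047 with quantile normalization and 0.049 with the percentile over kept spots (-0.24 to 0.014 over arrays left out), and that of C1GALT1 in PLC5 to -0.028 with the mean over probes (-0.038 to 0.061 over arrays left out). C1GALT1C1 in PLC5 ran from -0.22 to 0.30 over arrays left out.

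Between the lines, slide 1 alone called 4101 probes and 6 enzymes with siControl and 4274 and 7 with siGALNT1. Requiring all 6 arrays called 5 and 7 enzymes, since probes dim in one line fall out. The methods' t-test called 3967 probes and 6 enzymes with siGALNT1. Leaving out each array gave 6202 to 9569 probes and 6 to 11 enzymes with siControl, and 6229 to 9542 probes and 8 to 12 enzymes with siGALNT1. The fewest probes with siControl were called without PLC5 siControl replicate 3, and 6320 were called without replicate 2. GALNT4 and GALNT6 were not tested when a PLC5 array was left out, having too few arrays above background. With siGALNT1 the median of all probes moved from 0.10 to 0.22 with quantile normalization and to 0.32 with the percentile over kept spots, and the share of calls higher in HA22T from 44.2% to 55.1% and 60.7%. The causes of these shifts were not tested. Replicate numbers do not pair arrays of different lines, so no fit with the replicate as a block was made between them.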
